A study of Rattus norvegicus with 40 samples.

Results

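The genes described here make sterols, fatty acids and phospholipids. Of 39 listed members, 38 are named on the array, out of 14217 genes tested, and Hmgcs1 is not among them. Members were found by gene symbol in the platform annotation, and a gene is represented by its brightest probe set (the short oligonucleotides that together read 1 transcript). The members fall into 6 genes of the mevalonate branch, 10 genes from squalene to cholesterol, 4 genes of sterol sensing, 12 genes of fatty acid synthesis, elongation and desaturation, and 6 genes of glycerolipid and phosphatidylcholine synthesis. The 38 members have 63 probe sets, with more than 1 for 20 of them. In 37 members at least 1 group mean exceeded 7.89, which is the median log2 value of the table, and Acacb, the acetyl-CoA carboxylase of the mitochondrial surface, stayed below it in all 4 groups.

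The study measured RNA of whole lung and whole intestine of Wistar rat embryos on 40 Affymetrix expression arrays, asking by its title which changes prepare both organs for birth. There were 10 arrays in each of 4 groups, which are lung at gestational day 20 (E20), lung at day 16 (E16), intestine at E20 and intestine at E16, all from untreated animals as far as the labels say. Labelling used 2 µg of RNA for lung and 1 µg for intestine, so organ and amount of RNA cannot be told apart. Tissue of several siblings was frozen per the labels, and 10 embryos per age are named in the design text, so it is not settled whether an array is 1 embryo, and p-values measure only spread between arrays, which may be technical.

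Cholesterol is built from acetyl-CoA through mevalonate and squalene, and the transcription factors SREBP1 and SREBP2, encoded by Srebf1 and Srebf2, switch on most of the enzymes when membrane sterol is low. Fatty acid synthase makes palmitate, which elongases lengthen and desaturases give double bonds, and the choline pathway joins fatty acids and choline into phosphatidylcholine. In the lung before birth, alveolar type II cells make phosphatidylcholine rich in palmitate for surfactant, and in the intestine absorptive cells use phosphatidylcholine and cholesterol for membranes and for the coat of lipoproteins.

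The labelled organs carried their own markers. The mean of 7 type II markers, such as the surfactant protein Sftpc, ran from 12.91 to 13.47 log2 units in lung E20, against 7.39 to 8.15 in lung E16, where 3 of 7 exceeded 7.89. In intestine E20 this mean ran from 6.86 to 7.41, and 2 of the 7, Slc34a2 (10.74) and Abca3 (9.31), exceeded 7.89. The mean of 7 enterocyte markers ran from 13.26 to 13.85 in intestine E20, against 6.52 to 7.30 in intestine E16, where 1 of 7 (Vil1) exceeded it. General epithelial markers (5 genes, such as Epcam and Krt8) were higher at E20 in both organs, with 11.49 to 11.87 in lung E20, against 9.62 to 10.09 in lung E16, and 12.93 to 13.24 in intestine E20, against 9.34 to 10.29 in intestine E16. In whole organs a larger share of a cell type and more RNA per cell cannot be told apart. Lung E20 replicates 1 and 8 stood apart with liver markers at 9.10 and 9.18 (group median 6.42) and replicate 6 with mesothelial markers at 9.94 (group median 8.89). Together with intestine E20 replicate 9 and intestine E16 replicates 6, 8 and 9, which an earlier analysis of these data named for liver, pancreas or mesothelium transcripts, they were left out in an alternative fit. Liver markers also ran from 7.23 to 8.56 in lung E16, from 8.54 to 9.83 in intestine E20 and from 6.94 to 9.65 in intestine E16. The alternative fit left out no lung E16 array, so it does not take liver transcripts out of the E16 side of the lung changes. Of intestine E20 it left out replicate 9 alone, and the arrays kept still had liver markers at 8.54 to 9.49.

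The following stretches of 100 bases lie upstream of the transcription starts of 8 members that changed, and are given because the members differ in a promoter element. They come from RefSeq on the GRCr8 assembly and are written 5′ to 3′ on the gene's strand. Capitals mark ATTGG or its complement CCAAT, the core of the CCAAT box bound by NF-Y, and, in Pcyt1a, TCACNCCAC, a sterol regulatory element of the kind SREBP binds.
Ebp, chrX:16971327-16971426 (+), 135 to 36 bases before the start: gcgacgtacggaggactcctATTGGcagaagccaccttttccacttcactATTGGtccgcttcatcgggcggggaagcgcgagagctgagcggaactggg
Sc5d, chr8:51538285-51538384 (-), 107 to 8 bases before the start: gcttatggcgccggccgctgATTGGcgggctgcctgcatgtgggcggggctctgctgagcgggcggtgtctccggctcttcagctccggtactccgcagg
Srebf1, chr10:45529254-45529353 (-), 189 to 90 bases before the start: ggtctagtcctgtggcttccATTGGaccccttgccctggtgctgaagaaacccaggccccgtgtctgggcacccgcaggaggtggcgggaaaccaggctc
Chka, chr1:210505954-210506053 (+), 161 to 62 bases before the start: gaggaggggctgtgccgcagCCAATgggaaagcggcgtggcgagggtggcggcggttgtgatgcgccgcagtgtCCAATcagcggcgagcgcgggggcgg
Pcyt1a, chr11:81862451-81862550 (-), 153 to 54 bases before the start: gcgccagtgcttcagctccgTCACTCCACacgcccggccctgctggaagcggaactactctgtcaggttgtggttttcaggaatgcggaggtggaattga
Chpt1, chr7:24802522-24802621 (-), 100 to 1 bases before the start: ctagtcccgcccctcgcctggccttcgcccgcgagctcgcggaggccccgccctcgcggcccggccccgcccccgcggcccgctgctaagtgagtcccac
Scd, chr1:253231732-253231831 (-), 100 to 1 bases before the start: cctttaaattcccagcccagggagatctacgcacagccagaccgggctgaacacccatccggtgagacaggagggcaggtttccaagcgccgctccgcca
Lpcat1, chr1:31644947-31645046 (-), 100 to 1 bases before the start: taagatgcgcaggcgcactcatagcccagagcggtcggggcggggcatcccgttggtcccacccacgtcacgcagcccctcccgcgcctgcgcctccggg

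RefSeq windows of 250 bases before to 50 bases after the start were at hand for 32 of 38 members and for 11700 genes of the table. Searched on both strands, ATTGG stood in 21 of 32 member promoters (65.6%), against 37.3% of all promoters of that length. By branch it stood in 11 of 13 sterol promoters (84.6%), the exceptions being Cyp51 and Dhcr7, in 5 of 9 fatty acid promoters (55.6%) and in 2 of 6 phosphatidylcholine promoters (33.3%). Among the sensing genes ATTGG stood in 3 of 4 promoters (75.0%). TCACNCCAC stood in the promoter of Pcyt1a alone among the 32 (3.12%), against 1.11% of all, and that window held no ATTGG. These matches describe the letters of the window and do not show binding. Each motif was searched in 1 form, so a window without a match may hold a variant, or a site may lie outside it.

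In the intestine, phosphatidylcholine synthesis and the late steps of cholesterol synthesis were higher at E20 than at E16 in many of their genes, while no fatty acid gene was called. A gene was called at a limma adjusted p under 0.05 and a fold of at least 2, and 8 of 38 members rose by this rule, against 8.79% of all genes, and 0 fell, against 6.26% of all genes. The 8 were Chpt1, Chka, Pcyt1a and Cept1 of the choline pathway, Ebp, Sc5d and Cyp51 between squalene and cholesterol, and the regulator Srebf1. Of the 12 fatty acid genes 0 were called in either direction. At adjusted p alone, with no fold minimum, 27 members were higher (29.5% of all genes) and 6 lower (41.9% of all genes). The median log2 change was 1.27 over the 6 phosphatidylcholine genes, 0.73 over the 10 genes from squalene to cholesterol, 0.53 over the 4 sensing genes, 0.41 over the 6 mevalonate genes and -0.17 over the 12 fatty acid genes, beside -0.086 over all genes.

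The largest change among the members was that of Chpt1, the choline phosphotransferase that completes phosphatidylcholine. Its level was 12.08, 12.32 and 12.57 log2 units (lowest, median and highest array) in intestine E20, against 8.86, 8.99 and 9.24 in intestine E16. No array of E20 reached down to an array of E16, and the change was 3.33 (SE 0.075, a 10.1-fold rise, limma adjusted p = 1.42e-33). All 3 probe sets of Chpt1 were called, at 3.33, 3.45 and 2.75. Chka, choline kinase, which starts the pathway, stood at 10.46, 10.57 and 10.81 in intestine E20, against 8.14, 8.42 and 8.68 in intestine E16. The groups did not overlap, and Chka rose by 2.19 (SE 0.072, 4.56-fold, limma adjusted p = 1.47e-27).

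Pcyt1a encodes the enzyme that activates phosphocholine with CTP and sets the pace of the choline pathway. Its arrays ran over 10.78, 11.08 and 11.24 in intestine E20, against 9.61, 9.76 and 9.94 in intestine E16, again with no overlap. The rise was 1.30 (SE 0.055, 2.46-fold, limma adjusted p = 6.14e-24), but the dimmer probe set of Pcyt1a gave 0.23, and their mean 0.77 was not called. Cept1, which joins choline or ethanolamine to diacylglycerol, had 11.52, 11.89 and 12.10 in intestine E20, against 10.29, 10.61 and 10.92 in intestine E16. It rose by 1.24 (SE 0.075, limma adjusted p = 1.48e-18) without overlap. The remaining pair of the branch was not called: Gpam, the mitochondrial acyltransferase that starts glycerolipid synthesis, differed by 0.30, and Lpcat1, which remodels phosphatidylcholine, by -0.14.

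All 10 genes from squalene to cholesterol were higher in intestine E20 at adjusted p, and 3 of them passed the fold as well. Ebp, the sterol isomerase, stood at 9.79, 10.01 and 10.12 in intestine E20, against 8.24, 8.39 and 8.74 in intestine E16. The groups lay apart by more than the range of either, and Ebp rose by 1.53 (SE 0.071, 2.90-fold, limma adjusted p = 2.21e-22). Sc5d, the sterol desaturase of the next step, had 10.90, 11.23 and 11.45 in intestine E20, against 9.46, 9.97 and 10.27 in intestine E16. Its rise of 1.27 (SE 0.12, limma adjusted p = 1.32e-12) was without overlap, and 2 of its 3 probe sets were called, the other giving 0.44. Cyp51, which removes a methyl group from lanosterol, had 12.27, 12.50 and 12.76 in intestine E20, against 11.20, 11.32 and 11.60 in intestine E16. Its rise of 1.16 (SE 0.086, limma adjusted p = 1.36e-15) came from a probe set that may cross-hybridise by its suffix, and its other probe set gave 0.66 and was not called.

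Just short of the fold were Dhcr7, the reductase that yields cholesterol, at 0.98 (SE 0.069) and Tm7sf2, an earlier sterol reductase, at 0.88 (SE 0.10), both without overlap between ages. Dhcr7 ran over 10.40, 10.47 and 10.57 in intestine E20, against 9.26, 9.50 and 9.67 in intestine E16. Sqle, squalene epoxidase, was 0.51 and Lss, which closes the sterol rings, 0.57 higher. With these, the remaining 5 genes of the stretch differed by 0.29 to 0.59, from Msmo1, the methylsterol oxidase, to Nsdhl, a dehydrogenase of the demethylation steps whose second probe set gave 1.27 and was called. The mevalonate genes differed by -0.24 (Mvk, mevalonate kinase) to 0.54 (Pmvk, phosphomevalonate kinase), and 5 of 6 were higher at adjusted p. Between these lay Idi1 at 0.30, Mvd, mevalonate diphosphate decarboxylase, at 0.34, Fdps, which makes farnesyl diphosphate, at 0.47, and Fdft1, squalene synthase, at 0.49.

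Among the sensing genes Srebf1 rose. It had 10.33, 10.55 and 11.02 log2 units in intestine E20, against 8.86, 8.96 and 9.11 in intestine E16, without overlap, and the change was 1.64 (SE 0.091, 3.11-fold, limma adjusted p = 9.37e-20). Its second probe set gave 0.92. The intestine E20 arrays of Srebf1 were uneven, with 10.33 to 10.54 in replicates 1 to 5 and 10.56 to 11.02 in replicates 6 to 10. Insig1, which holds the SREBP complex in the endoplasmic reticulum and is itself an SREBP target, was 0.71 higher without a call, Srebf2 was 0.36 higher, and Scap, the escort of SREBP, differed by 0.090 (limma adjusted p = 0.101).

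Fatty acid genes lay on both sides of 0 in the intestine. At adjusted p alone 4 of 12 were higher and 5 lower, all by less than 2-fold, which is close to the 29.5% and 41.9% of all genes. Elovl1, an elongase of long saturated chains, was 0.57 higher and Scd2, a desaturase, 0.54 higher. Elovl5, an elongase of polyunsaturated chains, was lower, with a difference of -0.50 (SE 0.045, limma adjusted p = 3.50e-13). In these 3 the ages did not overlap with the probe sets used. The second probe set of Elovl5 gave -0.030 (limma adjusted p = 0.66). Fasn, fatty acid synthase, had 11.08, 11.48 and 11.85 in intestine E20, against 11.10, 11.38 and 11.50 in intestine E16, which overlapped (0.14, SE 0.11, limma adjusted p = 0.251). The intestine E20 arrays were uneven in this gene, with 11.64 to 11.85 in replicates 1 to 5 and 11.08 to 11.32 in replicates 6 to 10, the first 5 above all E16 arrays and the other 5 among the E16 levels or just below them. Acly read 11.23 to 11.42 and 10.82 to 11.09, and Acaca 10.19 to 10.37 and 9.79 to 9.99, in the same arrays. These replicates also lay apart in other members, not all in the same direction. Cyp51 read 12.52 to 12.76 in replicates 1 to 5 and 12.27 to 12.49 in 6 to 10, and Srebf1 10.33 to 10.54 and 10.56 to 11.02. In both genes all these levels exceeded the intestine E16 arrays. Idi1, Msmo1, Insig1, Fads1 and Gpam were among the others that lay apart. The labels give no batch for these arrays, so the mean changes of such genes in intestine average levels that lie apart. Enterocyte markers also lay apart, with means of 13.26 to 13.69 in replicates 1 to 5 and 13.77 to 13.85 in 6 to 10. Markers of dividing cells, such as Mki67, had means of 11.72 to 11.79 and 11.43 to 11.64, while general epithelial markers overlapped. The part of a batch or of cell types was not tested. The 2 steps that feed Fasn were not called, with Acly, which makes cytosolic acetyl-CoA, at -0.30 and Acaca, acetyl-CoA carboxylase, at -0.12. Acly was lower by p alone (limma adjusted p = 1.06e-04), and the second probe set of Acaca gave -0.48. Fads2, a desaturase of polyunsaturated chains, was 0.25 higher. Over all 38 members, 17 had E20 arrays wholly above E16 (17.3% of all genes) and 1, Elovl5, wholly below (20.3% of all genes).

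**Figure D1:**
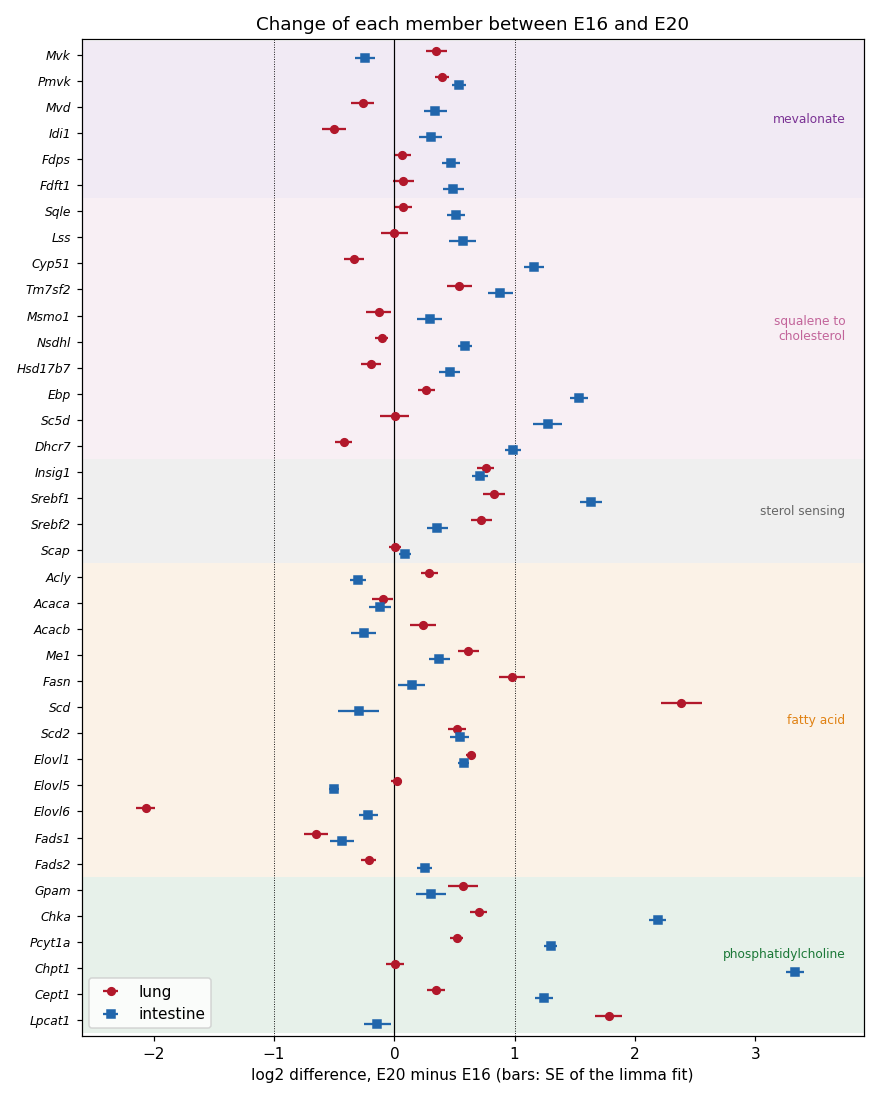
Log2 difference of each of the 38 members between E20 and E16 in lung (red circles) and intestine (blue squares), with the SE of the limma fit as bars and dotted lines at a 2-fold change. Chpt1 at 3.33 and Chka at 2.19 lie farthest right in intestine, Scd at 2.39 and Lpcat1 at 1.78 farthest right in lung, and Elovl6 at -2.07 farthest left in lung.

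In the lung, Scd and Lpcat1 rose and Elovl6 fell between E16 and E20, and 0 of the 16 enzymes of sterol synthesis were called. These 2 of 38 higher stand against 7.15% of all genes, and the 1 lower against 4.63% of all genes, so the share of members called was no larger than that of all genes. At adjusted p alone, 19 were higher (33% of all genes) and 8 lower (33.7% of all genes). Median log2 changes were 0.74 over the sensing genes, 0.54 over the phosphatidylcholine genes, 0.26 over the fatty acid genes, 0.071 over the mevalonate genes and -0.054 over the genes from squalene to cholesterol, beside -0.0064 over all genes.

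Scd is stearoyl-CoA desaturase, which places a double bond in palmitate and stearate. Its level was 7.97, 9.57 and 10.41 in lung E20, against 7.06, 7.21 and 7.37 in lung E16. Every E20 array lay above every E16 array, but E20 spread over more than 2 log2 units (SD 0.77, against 0.08 at E16). The rise was 2.39 (SE 0.17, 5.23-fold, limma adjusted p = 6.38e-16), and in a fit of the lung arrays alone it was called too. All E16 arrays were dim, below the median of all values, so the size of the fold depends on background.

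Lpcat1 re-acylates lysophosphatidylcholine and is known in lung for making the dipalmitoyl form of surfactant. It had 10.99, 11.89 and 12.40 in lung E20, against 9.97, 10.08 and 10.34 in lung E16, with no overlap. It rose by 1.78 (SE 0.11, 3.44-fold, limma adjusted p = 1.21e-17). Elovl6, the elongase that turns palmitate into stearate, moved the other way, at 7.86, 8.11 and 8.70 in lung E20, against 9.84, 10.22 and 10.47 in lung E16. The groups were more than 1 log2 unit apart, and Elovl6 changed by -2.07 (SE 0.079, 4.19-fold lower, limma adjusted p = 8.19e-25), with -2.16 from its second probe set, also called.

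Fasn fell just short of the fold in lung by its brighter probe set. That set read 11.51, 12.53 and 12.91 in lung E20, against 11.32, 11.54 and 11.59 in lung E16, with 1 E20 array (replicate 6) inside the E16 range. The difference was 0.98 (SE 0.11, limma adjusted p = 2.95e-10), while the second probe set of Fasn gave 1.68 and was called. Without the arrays that carried other tissue Fasn was 1.17 higher and called, as it was with the mean of both sets (1.33), with array weights (1.06) and with treat against 1.5-fold. The other fatty acid genes stayed within 2-fold, with Elovl1 0.64 higher, Me1, malic enzyme, which supplies NADPH, 0.61 higher, and Fads1, a desaturase of polyunsaturated chains, at -0.65. The 4 probe sets of Scd2 disagreed in sign in lung, from -0.26 to 0.97.

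Apart from Lpcat1, no gene of phosphatidylcholine synthesis was called in lung. Chpt1 had 8.77, 9.03 and 9.37 in lung E20, against 8.72, 9.03 and 9.28 in lung E16, a difference of 0.0039 (SE 0.075, limma adjusted p = 0.968). The other probe sets of Chpt1 gave 0.34 and -0.12 in lung, neither called. Chka was 0.70 higher, Pcyt1a 0.52 and Cept1 0.34, and in these 3 the ages did not overlap, yet none was called. Gpam was 0.57 higher with overlap. Among the sensing genes Srebf1 was 0.83, Insig1 0.76 and Srebf2 0.72 higher, short of the fold, and Scap differed by 0.0046. In all, 10 members had E20 arrays wholly above E16 in lung (15.2% of all genes) and 2, Elovl6 and Fads1, wholly below (15.9% of all genes).

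The sterol enzymes lay close to 0 in lung, with a median of 0.00075 over the 16. They ran from -0.50 for Idi1, the isomerase of the mevalonate branch, to 0.54 for Tm7sf2. Dhcr7 ran over 8.74, 8.98 and 9.50 in lung E20, against 9.33, 9.47 and 9.60 in lung E16, which overlapped (-0.42, SE 0.069). Hsd17b7, a reductase of sterol demethylation, differed by -0.19 in its brighter probe set and by -1.07 in its dimmer one, which was called.

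**Figure D2:**
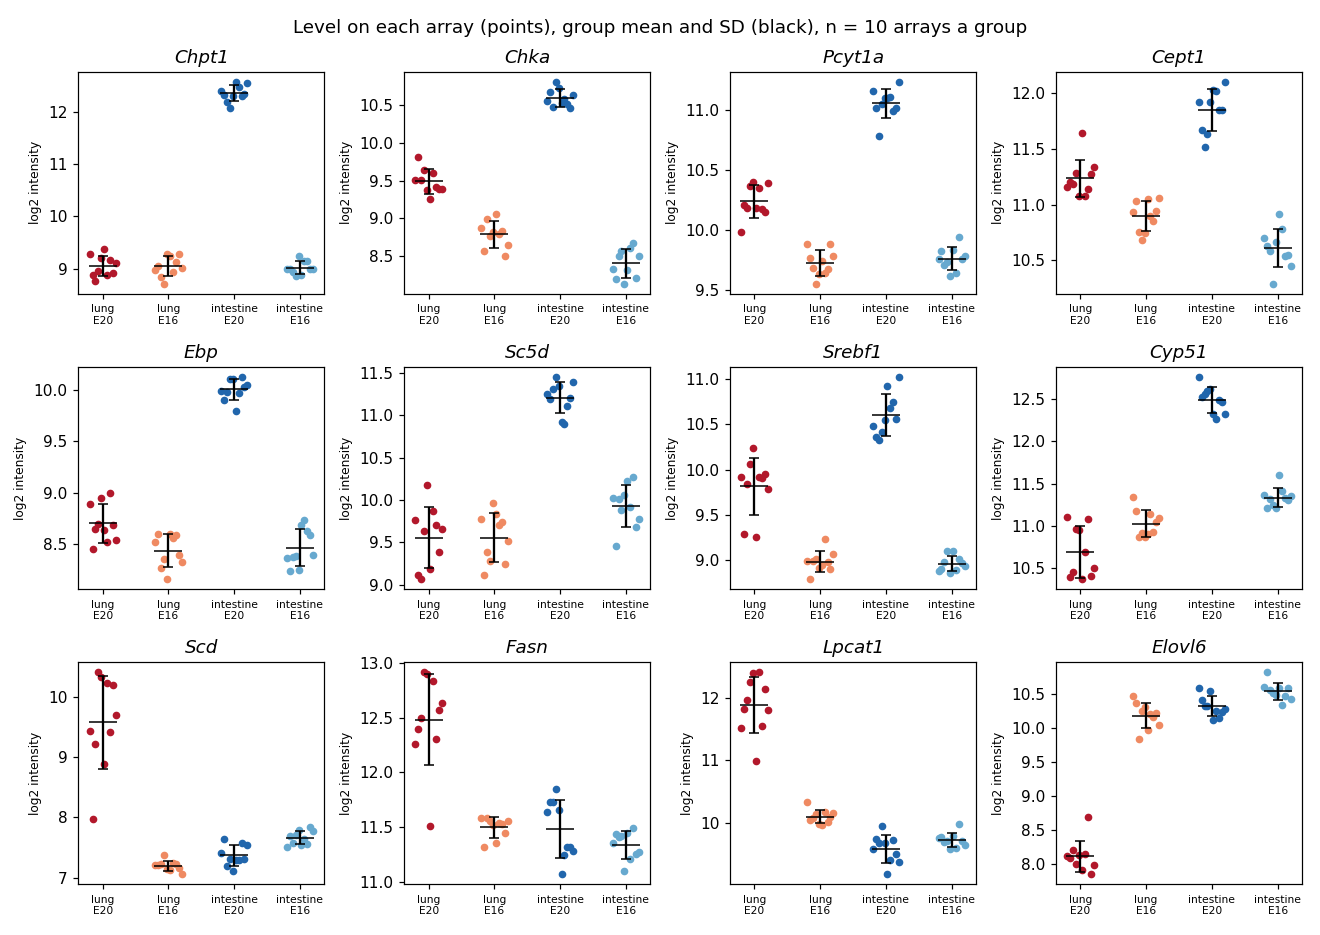
Log2 intensity on every array (points) of 12 members in lung E20, lung E16, intestine E20 and intestine E16, with group mean and SD in black (n = 10 arrays each) and a scale of its own for each gene. Intestine E20 stands apart upward in Chpt1, Chka, Pcyt1a, Ebp, Sc5d and Cyp51, and lung E20 upward in Scd and Lpcat1 and downward in Elovl6.

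The lung E20 arrays differed among themselves in these genes. Replicates 4, 5 and 7 read 10.41, 10.34 and 10.24 for Scd and 12.25, 12.40 and 12.40 for Lpcat1, whereas replicate 6 read 8.90 and 10.99. The lowest Scd level, 7.97, was in replicate 2. Type II markers were lowest in replicates 1, 6 and 8, at 12.91, 12.91 and 12.94, and these had 11.52, 10.99 and 11.54 for Lpcat1, the lowest levels of the group. Cyp51 followed another order, with 11.10 and 11.08 in replicates 1 and 8, which carried liver markers, 10.96 and 10.95 in replicates 4 and 5, and 10.37 to 10.69 in the other 6. The part of liver or mesothelial tissue in these values was not tested beyond leaving arrays out: without replicates 1, 6 and 8 and the 4 intestine arrays, the lung changes were 2.53 for Scd, 2.01 for Lpcat1, -2.12 for Elovl6 and -0.41 for Cyp51.

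**Figure D3:**
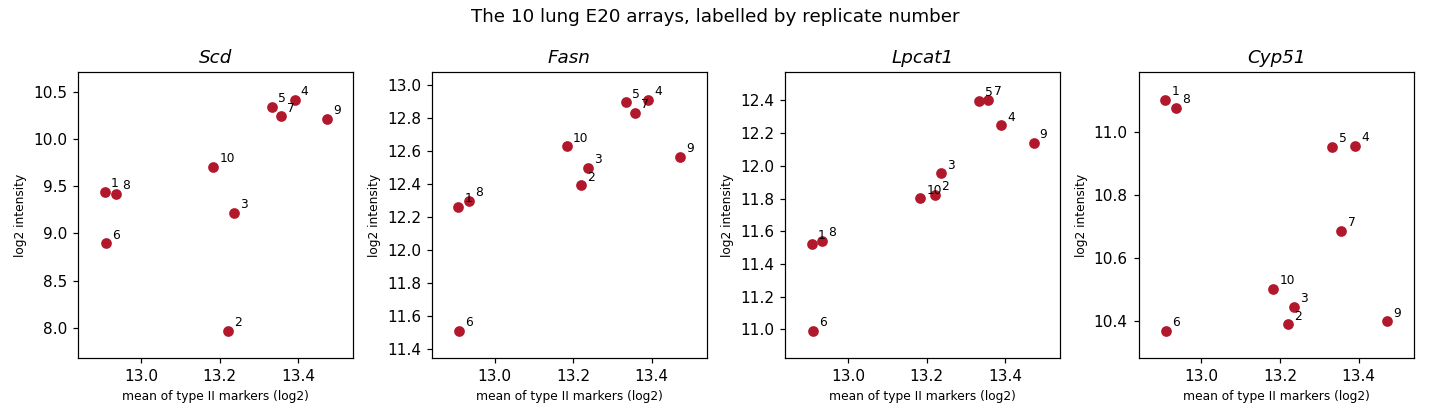
Log2 intensity of Scd, Fasn, Lpcat1 and Cyp51 on the 10 lung E20 arrays against the mean of 7 type II markers on the same array, with replicate numbers beside the points. Replicate 6 is lowest for Fasn (11.51) and Lpcat1 (10.99), replicate 2 for Scd (7.97), and replicates 1 and 8 are highest for Cyp51.

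Set against each other by the difference of the changes (lung minus intestine), 2 members were called higher, against 9.13% of all genes, and 7 lower, against 8.48% of all genes. At adjusted p alone these counts were 8 (35.3% of all genes) and 21 (30.9% of all genes). The 2 were Scd at 2.68 (SE 0.24, limma adjusted p = 7.72e-13) and Lpcat1 at 1.92 (SE 0.16, limma adjusted p = 6.49e-14). The 7 held both ends of the choline pathway, Chpt1 (-3.33, SE 0.11) and Chka (-1.49, SE 0.10), 4 sterol enzymes, and Elovl6 (-1.85, SE 0.11). The sterol enzymes were Cyp51 (-1.50), Dhcr7 (-1.41), Ebp (-1.27) and Sc5d (-1.27). All 10 genes from squalene to cholesterol were lower in this difference at adjusted p. For Cyp51 it was -0.56 and not called with the probe set without the suffix, and for Sc5d -0.99 and not called with the mean of its sets. Srebf1 (-0.81), Pcyt1a (-0.78), Cept1 (-0.90) and Fasn (0.83) differed between the organs at adjusted p but not by 2-fold with the probe sets used. The second set of Fasn gave 1.86 and was called, and with the mean of sets Fasn (1.35), Hsd17b7 (-1.20) and Nsdhl (-1.05) were called.

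By branch, the mean log2 level over the 10 genes from squalene to cholesterol was 9.33 ± 0.23 in lung E20, against 9.36 ± 0.085 in lung E16 (SD, n = 10 arrays each). In the intestine it ran from 10.26 to 10.57 at E20 (median 10.45), against 9.47 to 9.75 at E16 (median 9.59). The ages thus lay apart in intestine and overlapped in lung. The phosphatidylcholine genes lay apart in both organs, at 9.88 to 10.10 in lung E20, against 9.22 to 9.46 in lung E16, and at 10.41 to 10.72 in intestine E20, against 9.11 to 9.37 in intestine E16. The fatty acid genes overlapped in both, with medians of 10.08 in lung E20, against 9.84 in lung E16, and 9.92 in intestine E20, against 9.93 in intestine E16. General epithelial markers were higher at E20 in both organs, as given above. The mean of 4 red cell markers was lower, at 7.79 to 8.98 in intestine E20, against 12.81 to 13.76 in intestine E16. In lung it was 9.52 to 10.80 at E20, against 12.47 to 12.95 at E16. Of the 4, Alas2 alone was not lower in lung, at a mean of 12.34 in lung E20, against 12.14 in lung E16. The part of epithelium or blood in these levels was not tested.

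**Figure D4:**
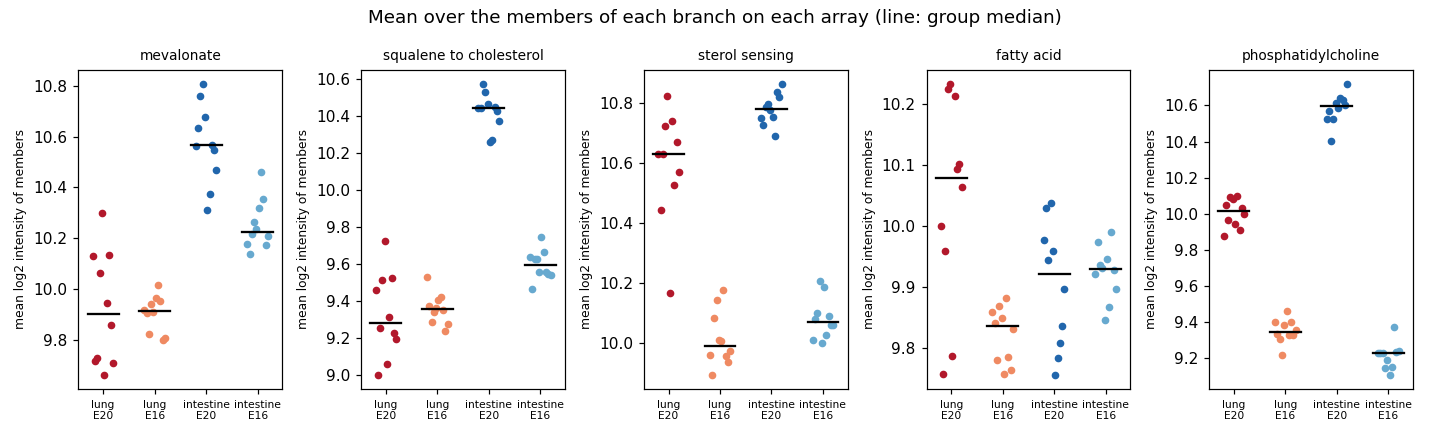
Mean log2 intensity over the members of each branch on every array (points), with the group median as a line, in lung E20, lung E16, intestine E20 and intestine E16 (n = 10 arrays each). In the panel from squalene to cholesterol intestine E20 (10.26 to 10.57) lies above the other 3 groups, and in the phosphatidylcholine panel both E20 groups lie above both E16 groups.

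Between the organs at E16, the calls among members were about as frequent as among all genes. Of 38 members 0 were called higher in lung, against 2.13% of all genes, and 1 lower, Tm7sf2, against 3% of all genes. With no fold minimum, 7 were higher (23.8% of all genes) and 14 lower (40.2% of all genes). Tm7sf2 had 7.54, 7.93 and 8.16 in lung E16, against 8.78, 8.96 and 9.08 in intestine E16, without overlap (-1.04, SE 0.10, limma adjusted p = 2.60e-11). With quantile normalization it was -0.91 and with arrays centred on their median -0.97, not called in either. Without overlap, 0 members lay higher and 6 lower in lung E16, against 8.23% and 11% of all genes. Chpt1, Ebp and Dhcr7, which were far apart at E20, had mean levels of 9.05, 8.44 and 9.46 in lung E16, against 9.02, 8.47 and 9.50 in intestine E16.

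At E20, 2 members were called higher in lung, against 7.91% of all genes, and 8 lower, against 8.21% of all genes. With no fold minimum, 9 were higher (30.6% of all genes) and 25 lower (42.5% of all genes). Lpcat1 was 2.30 (SE 0.11, 4.93-fold) and Scd 2.22 (SE 0.17, 4.65-fold) higher in lung E20 than in intestine E20, with no overlap. Lower in lung E20 were Chpt1 (-3.29), Elovl6 (-2.21), Chka (-1.10) and the sterol enzymes Cyp51 (-1.80), Sc5d (-1.65), Dhcr7 (-1.45), Tm7sf2 (-1.39) and Ebp (-1.30). Cyp51 was -0.70 and not called with the probe set without the suffix. The second probe sets of Hsd17b7 (-1.53), Nsdhl (-1.31) and Lss (-1.05) were called. With the mean of sets Hsd17b7 (-1.05) and Nsdhl (-1.05) were called too. All 10 genes from squalene to cholesterol were lower in lung E20 at adjusted p, with a median of -1.04, beside -0.089 over all genes. Fasn fell just short, at 0.99 (SE 0.11), and was called with its second probe set (1.82) and under 6 alternatives, among them the mean of its sets (1.41) and array weights (1.07). Without the arrays with other tissue Idi1 was called as well, at -1.05. Across the members 4 lay wholly higher and 16 wholly lower in lung E20, against 15.5% and 18.6% of all genes.

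**Figure D5:**
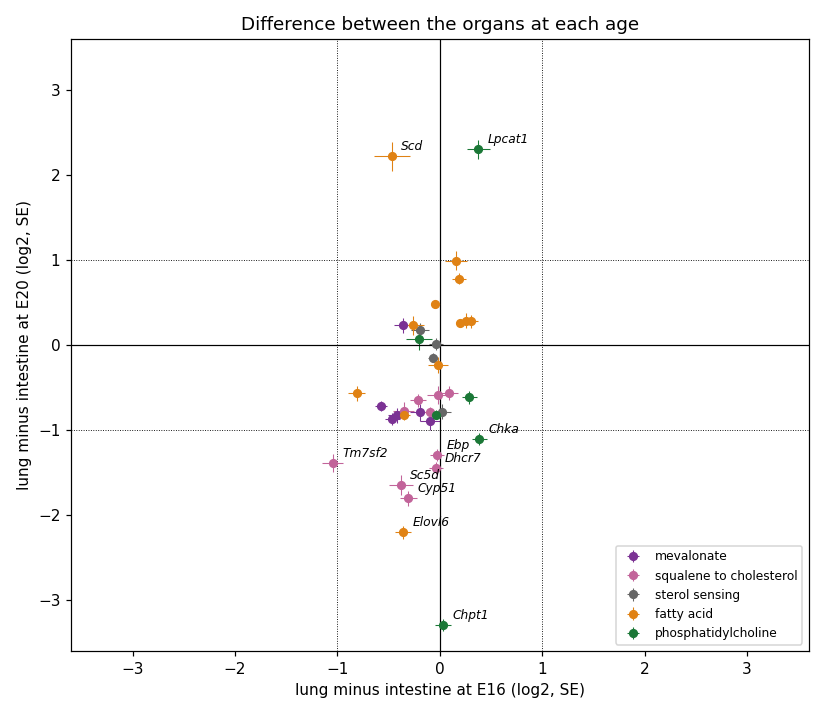
Log2 difference between lung and intestine of each member at E16 (horizontal) and at E20 (vertical), coloured by branch, with SE of the limma fit as bars and dotted lines at a 2-fold difference. At E16 Tm7sf2 alone lies beyond a dotted line, while at E20 Scd and Lpcat1 lie above and 8 members below.

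Other genes of the same pathways were listed by role and counted. Of 32 further glycerolipid and phospholipid genes on the array, 9 rose and 0 fell in the intestine, beside 8.79% and 6.26% of all genes. They were Cds1, which makes CDP-diacylglycerol (4.91), Dgat2 (4.46) and Dgat1 (2.77), which complete triglyceride, Mogat2, which acylates monoacylglycerol (3.08), Lpcat3, which puts polyunsaturated chains into phosphatidylcholine (2.53), Agpat2 (2.15), Abca3 (1.29), and Pcyt2 (1.66) and Selenoi (1.27) of the parallel ethanolamine pathway. In lung 5 of the 32 rose and 1 fell, beside 7.15% and 4.63% of all genes, with Pla2g1b, a phospholipase (4.62), Abca3, which loads phospholipid into lamellar bodies (3.84), Cds1 (3.36), Agpat2, an acyltransferase of phosphatidic acid synthesis (1.27), and Dgat2 (1.03) higher and Slc5a7, a choline transporter of nerve cells, lower (-1.15).

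Of 26 further fatty acid genes, 4 rose and 0 fell in the intestine, beside 8.79% and 6.26% of all genes. These were Acsl5, which activates fatty acids (4.32), Acss2, which makes acetyl-CoA from acetate (2.22), Slc25a1, which exports mitochondrial citrate (1.45), and Idh1, a source of NADPH (1.06). In lung 6 rose and 1 fell, beside 7.15% and 4.63%. Those higher were Lpl, lipoprotein lipase (2.81), Mid1ip1, which activates acetyl-CoA carboxylase (1.53), Acsl4 (1.44), Fads3 (1.32), Acsl5 (1.08) and Cyb5r3, a reductase that passes electrons to desaturases (1.07). The elongase Elovl2 fell, at -2.02, and had a mean of 5.15 in lung E20, against 7.17 in lung E16, dim in both.

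Of 18 further sterol genes, 2 rose and 2 fell in the intestine, near the 8.79% and 6.26% of all genes. Nr1h3, the oxysterol receptor LXR alpha, was 3.95 higher and Stard4, a sterol carrier, 1.61 higher, while Abca1, which exports cholesterol, was at -1.50 and Cyp7b1, an oxysterol hydroxylase, at -1.18. In lung 2 rose, Abcg1, a sterol exporter (1.19), and Nr1h3 (1.19), and 1 fell, Acat2, the thiolase at the head of the mevalonate branch (-1.23), near the 7.15% and 4.63% of all genes. Acat2 averaged 9.59 in lung E20, against 10.82 in lung E16.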

How the data were processed

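RNA of whole lung and intestine was measured on 40 arrays. The deposited values are intensities on a linear scale for 31099 probe sets; RMA, without a version, is listed per the submitters' processing notes. Their genome build was not given in the sources used here. No label states whether both organs were normalized together. The planned test allowed for linear values, and log2 was taken first. Of the probe sets, 20832 have 1 gene symbol, 436 several and 9831 none in the platform annotation, which gave 14217 genes by the brightest probe set over all arrays. RefSeq promoters and names are from GRCr8. Deposited intensities ran from 6.65 to 39901, with array medians of 220 to 264. Arrays have no depth, so their number limits the precision.

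The linear model of limma 3.58.1 (R 4.3.3) held 4 group means over the 40 arrays, from which 5 contrasts were formed. Called means a two-sided Benjamini-Hochberg adjusted p under 0.05 over 14217 genes and at least 2-fold. SE is that of the fit, and SD is over 10 arrays. The script was tested on simulated data. Named are all members on the array by branch, and other pathway genes called between ages or between organs at E20. Members, branches and lists were chosen with earlier results of these data known. Alternatives were quantile normalization, centring, mean of probe sets, sets without suffixes x or s, bright genes only, both replicate blocks, the 2 groups alone, arrays left out, array weights, no fold minimum, and treat against 1.5-fold.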

Additional observations from a re-analysis of the deposited data

Results flagged for a closer look

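Of 152 combinations of a member and a group, 11 held an array whose gap to its neighbour exceeded Dixon's critical share of the group's range. Chance flags about 1 in 20 such groups. In lung E20, replicate 6 was lowest for Fasn (11.51, next 12.26) and Acaca (9.64, next 10.25) and highest for Cept1 (11.65, next 11.33). This replicate also carried more mesothelial transcripts than its group, and the part of that tissue in these values was not tested. Also in lung E20, Sqle was lowest in replicate 10 (9.67) and Elovl6 highest in replicate 8 (8.70). In lung E16, Fads1 was highest in replicate 1 (11.17) and Fads2 lowest in replicate 6 (7.97). In the intestine, Sqle was lowest in E20 replicate 6 (10.47), Cyp51 highest in E16 replicate 6 (11.60), and Fads1 (11.15) and Lpcat1 (9.98) highest in E16 replicate 8.

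The change between ages differed between the organs in 9 of 38 members, called at adjusted p under 0.05 and at least 2-fold. The limma test was of the difference itself (lung change minus intestine change). The change was higher in lung for 2 members, Scd (2.68) and Lpcat1 (1.92), against 9.13% of all genes. It was lower in lung for 7 members, against 8.48% of all genes. These were Chpt1 (-3.33), Elovl6 (-1.85), Cyp51 (-1.50), Chka (-1.49), Dhcr7 (-1.41), Sc5d (-1.27) and Ebp (-1.27). Cyp51 was not called with the probe set without the suffix (-0.56), nor Sc5d with the mean of its sets (-0.99).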

How the results depend on the processing

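The numbers of called members changed by over 1.5 times in 16 of 120 comparisons with an alternative. With no fold minimum, intestine had 27 higher and 6 lower, lung 19 higher and 8 lower, the difference of changes 8 higher and 21 lower, lung against intestine 7 higher and 14 lower at E16 and 9 higher and 25 lower at E20. The shares of all genes that go with these counts are given with each contrast above. With the mean of probe sets, 5 members were higher in intestine, beside 1148 of 14217 genes. Cyp51 (0.91), Sc5d (0.97) and Pcyt1a (0.77) lost their call there. With treat against 1.5-fold, lung had 5 higher, beside 1357 of 14217 genes. Lung against intestine at E20 then had 4 higher and 14 lower, beside 1500 and 1618 of 14217 genes. With quantile normalization or centred arrays 0 members were lower in lung at E16, beside 364 and 389 of 14217 genes. Quantile normalization put the median of all genes in that contrast at -0.0020, against -0.11 as deposited.

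Direction turned in 17 cases, in none of which the member was called, and the cause was not tested. For E20 minus E16 in lung these were Lss 0.030 and Acaca 0.033 without the arrays with other tissue, Cyp51 0.10 without suffixed sets, Sc5d -0.0048 (quantile), -0.057 (centred), -0.021 (mean of sets) and -0.063 (weights), Scap -0.055 (centred) and -0.023 (mean of sets), Elovl5 -0.039 (centred), and Chpt1 -0.036 (quantile), -0.056 (centred), -0.090 (arrays left out) and -0.071 (weights). With the mean of sets Fasn in intestine was -0.022, Acaca between organs at E16 -0.048 and Mvk at E20 -0.036.

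Equal replicate numbers were not taken as pairs: the labels state no pairing, and 5, 5, 7 and 4 of 10 pairs correlated over 0.1 in the 4 pairs of groups. In lung E16 and intestine E16, 5 of 10 arrays correlated best with their own number (3, 1 and 2 in the other pairs), a hint from the data. Both fits with the replicate block, as an additive term and as a random embryo (consensus correlation 0.107), changed no call in 160 comparisons each, and the block left 8 members higher in intestine and 2 in lung. The calls of Scd, Lpcat1 and Elovl6 in lung were kept in all 12 alternatives, at 2.26 to 2.53, 1.72 to 2.01 and -2.13 to -2.07. Few probes per gene, disagreement between probe sets and mixed tissue limit these values.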

Other observations

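Beyond the listed members, lipid genes from the other lists were compared between the organs at E20. Of 32 further glycerolipid and phospholipid genes, 2 were called higher in lung E20 and 9 lower, beside 7.91% and 8.21% of all genes. The enzymes that complete triglyceride were lower in lung, with Mogat2, which starts the monoacylglycerol route, at a mean of 8.72 in lung E20, against 12.19 in intestine E20 (-3.46, SE 0.094), Dgat2 at -2.90 and Dgat1 at -2.85. Higher in lung were Pla2g1b (4.97, SE 0.12) and Abca3 (2.55, SE 0.15). Also lower were Lpcat3 (-2.27), Cds1 (-1.76), Agpat2 (-1.01), Slc5a7 (-2.37, dim in lung) and, of the ethanolamine pathway, Pcyt2 (-1.59) and Selenoi (-1.17).

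Among 18 further sterol genes, 4 were called higher in lung E20 and 2 lower, beside 7.91% and 8.21% of all genes. The exporters Abca1 (2.61, SE 0.16) and Abcg1 (1.55, SE 0.063) and Soat1, which esterifies cholesterol (1.03, SE 0.093), were higher in lung. Acat2 (-1.75, SE 0.080) and Stard4 (-1.14, SE 0.050) were lower. Cyp7b1 (1.91) was below the median of all values in both organs at E20. Of 26 further fatty acid genes 3 were higher, Lpl (3.29), Fads3 (1.83) and Mid1ip1 (1.36), and 7 lower, beside the same shares of all genes. The 7 were Acsl5 (-2.45), Acss2 (-1.38), Hacd2 (-1.37), Slc25a1 (-1.34), Idh1 (-1.27), Acsl1 (-1.01) and Elovl2, which was dim in lung E20 at 5.15, against 9.09 in intestine E20, so that its size depends on background.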
